A study of Rattus norvegicus with 9 samples.

Results

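The interferon-induced antiviral genes described here are 15 of the 32662 genes counted in RN46A cells. They are Ifit1, Ifitm3, Oasl and Irf1, and every other gene whose name in the authors' tables of changed genes begins with Ifi, Oas, Irf, Isg or Mx and a digit. The tables name 1384 identifiers, and 0 of the names begin with Mx. Of the 15 members, 14 were named in the authors' DESeq2 table for VPA, 9 of them also in the Salmon and sleuth table, and 2, Ifit1 and Oasl, in the lithium table. Oasl was named in the lithium table alone. All 15 had enough reads to be tested, but 4 missed the limit of the filter on low counts in some libraries. Irf4 reached it in 3 VPA, 0 lithium and 0 control libraries, and Irf8 in 3, 1 and 0. Ifit1 reached it in 0 VPA, 3 lithium and 3 control libraries, and Ifi47 in 2, 3 and 3. Irf4 and Irf8 needed their VPA levels to enter, while Ifit1 and Ifi47 had enough in lithium and control whatever their VPA levels. The comparisons of these 4 with VPA are given as descriptions. The VPA tables list genes by their p in VPA against control, so for the 14 members named there the values of that comparison are a description and support nothing. The last members inside the limit of that DESeq2 table, an adjusted p of 0.05, were Irf2bpl at 0.046 and Ifi47 at 0.044 in the authors' deposited table. Genes just outside carry no name and were not analysed here. Not every member is known to respond to interferon: Irf2bpl and Ifitm10 are members by their names, not by such a response.

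RN46A is an immortalised rat line from the raphe nucleus with serotonergic features. All cultures were kept at 33 °C in 5% serum, differentiated at 39 °C in 1% serum for 72 h, and then held for a further 72 h with 0.5 mM sodium valproate (VPA), with 0.5 mM lithium, or as controls. Each group has 3 libraries of polyadenylated RNA sequenced without strand information. The labels name no infection and no added interferon. They do not say whether replicate libraries are separate cultures, so a p-value here reflects library-to-library spread that could be purely technical. Both drugs are mood stabilisers: VPA blocks histone deacetylases, while lithium acts on kinase and inositol signalling.

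Interferons are cytokines released by cells that sense viral nucleic acid. Their receptors activate JAK kinases and STAT transcription factors, which bind 2 kinds of promoter element, the interferon-stimulated response element (ISRE) and the gamma-activated site (GAS), and switch on antiviral effectors. Interferon regulatory factors (Irf genes) bind ISRE-type elements and either drive interferon production or amplify the response. Uninfected cells, neurons included, keep a low basal level of many of these transcripts.

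Libraries held 9580591 to 13030300 reads in genes, so 1 read was worth 0.077 to 0.109 CPM, the read count scaled by TMM-adjusted library size. The serotonergic identity of the line could not be checked well, since 1 of 11 serotonergic markers, Maob, carried a name. Named markers of other cell types moved with VPA. Most names come from tables chosen by p in VPA against control, so this movement was likely beforehand and is a description. Markers without a name were not looked at. Summed over the 6 of 11 fibroblast markers with a name, levels were 470.5 to 741 CPM in VPA libraries, 1212 to 2667 CPM in lithium libraries and 1812 to 3644 CPM in controls. S100a4 carried most of that sum, at 488 CPM on average with VPA, 1665 CPM with lithium and 2219 CPM in control. The proteoglycan gene Lum had 0 reads in all VPA libraries, while Pdgfra averaged 8.21 CPM with VPA, 3.12 CPM with lithium and 5.29 CPM in control. The 10 of 16 pan-neuronal markers summed to 192 to 241 CPM with VPA, 55.4 to 78.8 CPM with lithium and 53.7 to 77.4 CPM in controls. The 4 of 11 glial markers summed to 55.9 to 65.1 CPM with VPA, 14.4 to 15.9 CPM with lithium and 11.1 to 16.9 CPM in controls, with Sox10, Erbb3 and Ngfr higher with VPA and S100b lower. The part of these shifts in the results on interferon genes was not tested. In bulk RNA, fewer cells of a type and less RNA per cell cannot be told apart.

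Promoter stretches are shown first, because most members share an inducer. Their part in the levels with VPA was not tested. RefSeq promoter windows (assembly GRCr8, 250 bases before the start site, which counts as 0, and 50 from it on) were held for 12 of the 15 members; Ifit1, Ifitm1 and Isg15 had no entry. The windows were searched on both strands for an ISRE-type match (TTTC, any 2 bases, TTTC) and a GAS-type match (TTC, any 3 bases, GAA). Capitals mark every match of either kind in the 60 bases shown, 5′ to 3′ on the gene's strand, all upstream of the start.
Ifitm3, chr1:205541769-205541828, minus strand: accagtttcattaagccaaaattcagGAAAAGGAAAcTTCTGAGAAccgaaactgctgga
Irf7, chr1:205800064-205800123, minus strand: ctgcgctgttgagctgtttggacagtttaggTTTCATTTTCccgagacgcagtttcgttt
Ifi44, chr2:243303841-243303900, minus strand: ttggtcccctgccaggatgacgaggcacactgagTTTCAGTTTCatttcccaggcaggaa
Oasl2, chr12:47383306-47383365, minus strand: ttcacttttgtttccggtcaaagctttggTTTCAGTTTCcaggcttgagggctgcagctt
Irf1, chr10:38417765-38417824, plus strand: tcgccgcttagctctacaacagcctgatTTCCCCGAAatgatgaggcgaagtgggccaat
Ifi47, chr10:33798619-33798678, plus strand: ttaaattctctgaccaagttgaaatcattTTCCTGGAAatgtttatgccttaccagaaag
Irf8, chr19:65699084-65699143, plus strand: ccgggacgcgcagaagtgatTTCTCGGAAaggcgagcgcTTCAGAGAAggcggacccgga

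An ISRE-type match lay in the windows of 4 of the 12 members, Ifitm3, Irf7, Ifi44 and Oasl2 (33.3%), against 4.12% of all 27457 genes with a window. A GAS-type match also lay in 4 of 12, Irf1, Ifi47, Irf8 and Ifitm3, against 9.39% of all genes. In Ifitm3 both kinds lie side by side without overlap, the ISRE-type match 44 to 35 bases and the GAS-type match 33 to 25 bases upstream of the start. Ifi44 had a second ISRE-type match downstream of its start, and Ifi47 a second GAS-type match farther upstream. Oasl, Ifi35, Irf4, Ifitm10 and Irf2bpl had neither, which says only that these letters are not in these windows. A match is a description of letters and not a measured binding site. Members were chosen by names tied to interferon, so nothing about VPA is read from these shares.

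**Figure D1:**
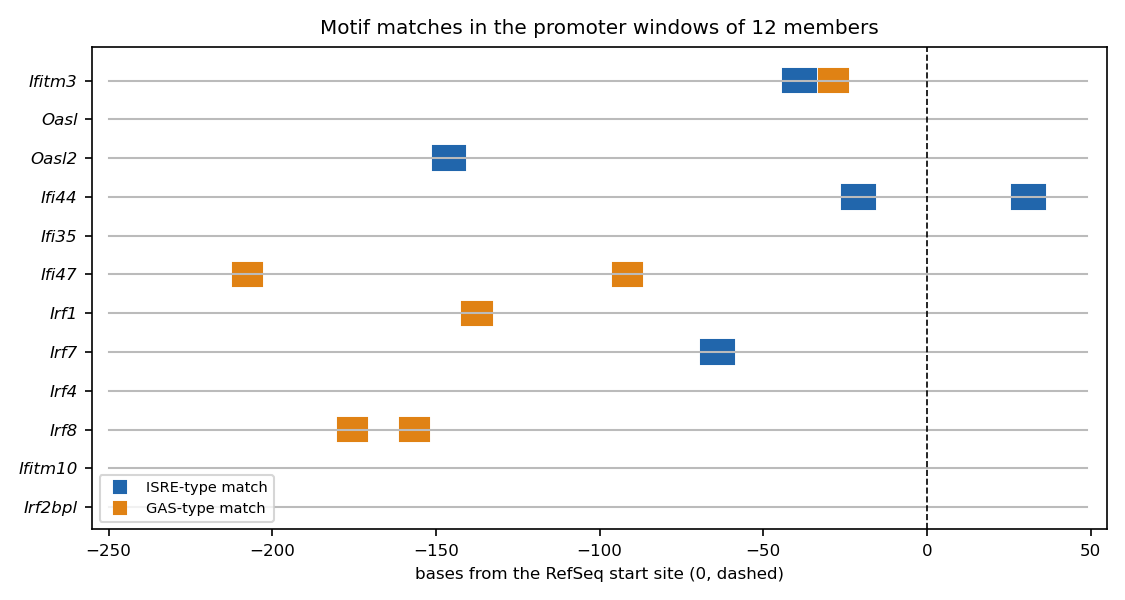
Positions of ISRE-type (blue) and GAS-type (orange) matches in the promoter windows of 12 members, in bases from the RefSeq start site at 0 (dashed line). Matches lie within the windows of 7 members, and 5 members show an empty line.

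With VPA, 12 of the 15 members had a lower mean than in control and 3 a higher one. The lower members include the effectors Ifit1, Ifitm3, Isg15, Oasl2 and Ifi44 and the factors Irf1 and Irf7, at log2 fold changes from -2.39 for Ifit1 to -0.87 for Irf1. The 3 higher members were Irf4, Irf8 and Ifitm1. In edgeR's fit 11 members were called, 9 lower and 2 higher, where 8.70% of all 12719 genes tested were called, 2.99% lower and 5.71% higher; the names were chosen on this contrast, so nothing is read from the count. The median log2 fold change was -1.03 over the members and -0.01 over all genes tested. Without VPA 1, VPA 2 or control 1 the count of called members was 7. Same-numbered VPA and control libraries deviated together, and with the replicate number as a block 14 members were called, 12 lower and 2 higher, with 1741 of all genes, against 1106 without it. Ifi35, Irf2bpl and Oasl were called with the block and not in the main fit. Most fits without the block did not call these genes. DESeq2 without it called Ifi35 (DESeq2 adjusted p = 0.0287) and Irf2bpl (0.021), but not Oasl (0.0739). Without the block Oasl was called only in edgeR's fit that left out VPA 3 (edgeR adjusted p = 0.0462), the VPA library that overlapped its controls. On VPA and control alone the blocked fit called all 15.

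Ifit1 (ENSRNOG00000019050) encodes a protein that, in mouse and human, binds viral RNA with an unmethylated cap and blocks its translation. Its level was 0.39, 0.428 and 0.803 CPM in VPA 1, 2 and 3, against 1.98, 1.49 and 1.85 CPM in lithium 1, 2 and 3 and 2.99, 2.71 and 3.02 CPM in control 1, 2 and 3. The 3 groups did not overlap, and lithium lay between VPA and control. These levels rest on 19 reads over the VPA libraries together, 64 over lithium and 92 over control. The log2 fold change of VPA over control was -2.39 ± 0.36 (SE), the most negative among the members in edgeR's fit. The authors' deposited DESeq2 values were -1.5 for Ifit1 and -1.7 for Ifitm3. In RefSeq the gene overlaps Ifit1bl, and reads of near-identical family copies cannot be told apart, so its level is uncertain.

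Ifitm3 (ENSRNOG00000015078) encodes a membrane protein that restricts the fusion of viruses with endosomes. It stood at 3.12, 3.43 and 1.93 CPM with VPA, at 16.0, 6.32 and 7.24 CPM with lithium and at 13.2, 11.1 and 9.95 CPM in control. All VPA libraries lay below all others, and lithium 1 lay above every control while lithium 2 and 3 lay below. VPA over control was -2.02 ± 0.37 on the log2 scale. Its neighbour Ifitm1, which in mouse and human restricts viruses at the cell surface, went the other way, at 6.71, 8.68 and 11.5 CPM with VPA against 5.51, 2.19 and 5.78 CPM with lithium and 2.45, 5.10 and 4.53 CPM in control. VPA libraries lay above all others for Ifitm1, with a log2 fold change over control of 1.16 ± 0.38. The authors' deposited Cufflinks table places Ifitm1 on chromosome 1 from 213765808 to 213767830 and Ifitm3 from 213810695 to 213811901; the build is not given in the sources used here.

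Isg15 encodes a ubiquitin-like protein that is attached to other proteins. With VPA its level was 14.6, 16.5 and 15.02 CPM, against 40.7, 18.9 and 26.8 CPM with lithium and 29.03, 35.3 and 29.7 CPM in control. VPA libraries were close to each other and below all others, while lithium 1 was the highest of the 9 libraries. The log2 fold change of VPA over control was -1.03 ± 0.25. Genes for its conjugating and activating enzymes, which are not members, are given further on.

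The oligoadenylate synthetase-like genes are neighbours in RefSeq. Oasl2, whose mouse protein makes the oligoadenylates that activate an antiviral ribonuclease, was at 18.4, 19.3 and 23.3 CPM with VPA, 35.8, 27.0 and 43.1 CPM with lithium and 44.7, 30.5 and 54.2 CPM in control. Its VPA libraries lay below all others, with a log2 fold change over control of -1.09 ± 0.24. Oasl (ENSRNOG00000001187), whose mouse counterpart lacks synthetase activity and limits Irf7 translation, was at 25.6, 25.3 and 43.9 CPM with VPA, 32.0, 20.2 and 29.9 CPM with lithium and 54.5, 39.6 and 63.9 CPM in control. For Oasl the lithium libraries lay below all controls, and VPA 3 overlapped the controls. Oasl was absent from the authors' VPA tables, which list genes that passed in VPA against control, so a miss here was likely beforehand. That contrast also shares the control libraries with the lithium comparison that chose Oasl. Its values are therefore a description. VPA over control was -0.74 ± 0.27, with an adjusted p = 0.122 in edgeR's test (95% interval -1.33 to -0.15), which did not pass. With the replicate number as a block edgeR's adjusted p was 0.0229, and without VPA 3 it was 0.0462 at a log2 fold change of -1.05.

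Ifi44, Ifi47 and Ifi35 are named for induction by interferon. Ifi44, a cytoplasmic protein whose action is less settled, was at 6.87, 7.71 and 7.71 CPM with VPA, 25.0, 17.98 and 14.1 CPM with lithium and 20.5, 19.9 and 11.6 CPM in control. VPA libraries lay below all others and lithium overlapped control, with VPA over control at -1.22 ± 0.27. Ifi47, an immunity-related GTPase, was at 1.48, 0.857 and 1.93 CPM with VPA, 3.62, 2.89 and 4.39 CPM with lithium and 3.63, 3.15 and 4.35 CPM in control, a log2 fold change of VPA over control of -1.36 ± 0.33. Lithium and control were almost level for Ifi47 and VPA lay below both. Ifi35, a partner of Nmi, was at 23.8, 27.0 and 41.5 CPM with VPA, 54.1, 38.5 and 52.5 CPM with lithium and 41.2, 62.7 and 56.0 CPM in control. VPA 3 overlapped control 1 for Ifi35, and VPA over control was -0.79 ± 0.25.

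Of the regulatory factors, Irf1 and Irf7 were lower with VPA and Irf4 and Irf8 higher. Irf1 (ENSRNOG00000008144), an activator of many interferon-gamma targets, was at 50.6, 47.8 and 53.4 CPM with VPA, 90.1, 78.6 and 102 CPM with lithium and 85.6, 88.0 and 104 CPM in control. The VPA libraries were tightly grouped and below all others, and VPA over control was -0.87 ± 0.16. Irf7, which drives type I interferon production, was at 23.8, 32.0 and 28.1 CPM with VPA, 60.0, 45.8 and 60.2 CPM with lithium and 48.99, 55.1 and 68.2 CPM in control. Again lithium and control overlapped while VPA lay below both, with VPA over control at -1.04 ± 0.19.

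Irf4 and Irf8, known for lymphoid and myeloid cells, were near the limit of detection outside the VPA group. Irf4 had 14 to 27 reads in a VPA library, against 2 to 7 in a lithium library and 2 to 4 in a control. Irf8 had 21, 19 and 29 reads in VPA 1, 2 and 3, against 8, 5 and 12 with lithium and 5, 3 and 6 in control. VPA libraries were above all others for both, at log2 fold changes over control of 2.46 ± 0.51 for Irf4 and 2.15 ± 0.41 for Irf8. The authors' deposited DESeq2 values were smaller, at 1.3 for Irf4 and 1.3 for Irf8. Of 20 leucocyte and microglial markers 2 carried a name, Cd68 and Cd14, and their summed level was 30.9 to 52.8 CPM with VPA, 26.8 to 45.6 CPM with lithium and 23.3 to 43.7 CPM in control. Within that pair the lysosomal gene Cd68 averaged 32.6 CPM with VPA against 10.5 CPM in control, and the lipopolysaccharide co-receptor gene Cd14 averaged 9.95 CPM with VPA against 20.4 CPM in control. Their part in the levels of Irf4 and Irf8 was not tested.

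The remaining members, Ifitm10 and Irf2bpl, entered by name and not by a known response to interferon. Ifitm10 was at 8.58, 13.1 and 14.9 CPM with VPA, 22.3, 18.2 and 23.4 CPM with lithium and 25.9, 23.3 and 37.6 CPM in control, and VPA over control was -1.25 ± 0.25. Irf2bpl, related to Irf2-binding proteins, was at 47.3, 47.2 and 47.8 CPM with VPA, 57.8, 67.5 and 79.1 CPM with lithium and 72.7, 59.0 and 98.7 CPM in control, and VPA over control was -0.70 ± 0.20. For both, VPA lay below all other libraries. Across the 15 members VPA 3 was the highest VPA library for 11, lithium 2 the lowest lithium library for 12, and control 3 the highest control for 9.

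**Figure D2:**
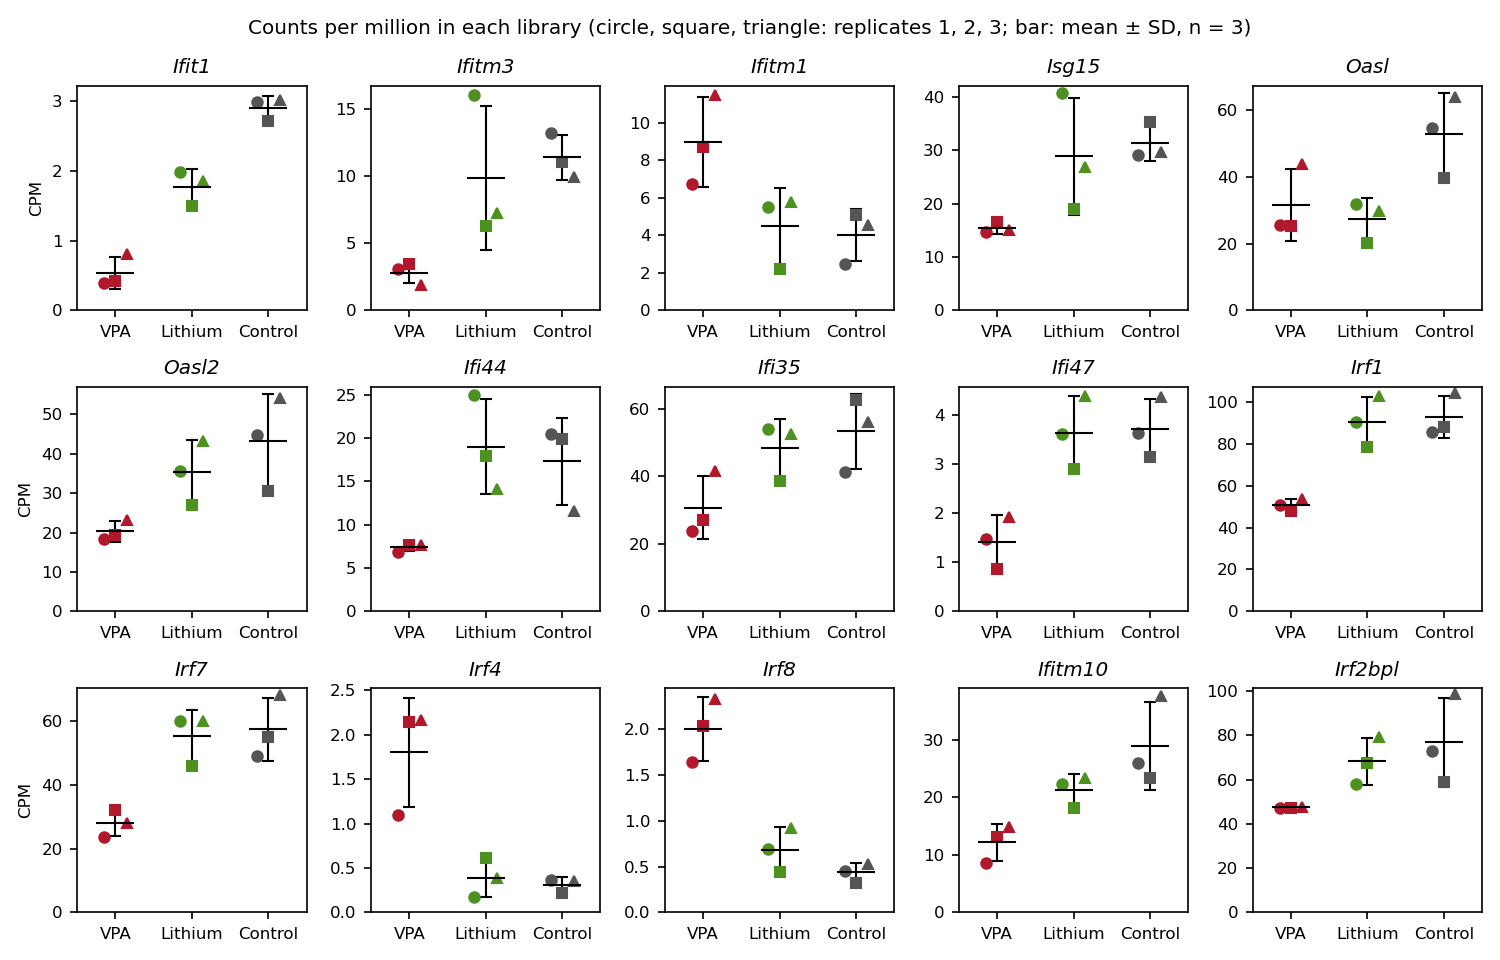
Level of each member in CPM (vertical axes, each from 0) in the 3 VPA, 3 lithium and 3 control libraries, with points for libraries and bars for mean ± SD. VPA lies below control without overlap for 10 members and above it for Irf4, Irf8 and Ifitm1, and Oasl is the member whose lithium mean is the lowest of the 3.

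In all, VPA and control libraries did not overlap for 13 members, 10 lower and 3 higher with VPA, where 11.4% of all genes tested lay lower without overlap and 14.1% higher. Most names were chosen on this contrast, so these counts are a description. The mean over lithium libraries lay between VPA and control for 13 of the 15 members. Names chosen where VPA and control lie apart favour such an order, and its share over all genes was not counted. The median log2 fold change of the members over control was -0.12 with lithium and -1.03 with VPA, so no graded effect is read from the order. The exceptions were Ifi44, whose lithium mean was the highest, and Oasl, whose lithium mean was the lowest.

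Per length, which allows levels of different genes to be compared, the authors' deposited Cufflinks table gives 1 FPKM value per group for 7 members. With VPA, Irf1 (22.1 FPKM) and Ifitm10 (19.3 FPKM) were the highest of these in that table, and Ifi44 (3.66 FPKM) the lowest. In control the same table has Ifitm10 at 46.6 FPKM and Irf1 at 42.3 FPKM at the top, and Ifitm1 at 7.00 FPKM at the bottom. Ifitm1 stood above Ifitm3 with VPA in the authors' deposited table, at 14.6 against 5.07 FPKM, and below it in control, at 7.00 against 20.9 FPKM. The authors' deposited Salmon and sleuth table lists 10 transcripts of 9 members, 9 lower with VPA and 1, that of Irf8, higher. Its effects, on a natural log scale, ran from -1.54 for Ifit1 to -0.60 for Oasl2 among the lower ones, and Ifi44 had 2 transcripts listed in the authors' deposited table, at -0.74 and -1.54.

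Lithium against control asks whether the other mood stabiliser moves the same genes. None of the 15 members was called, with 0 of 12719 genes called in edgeR's test (0.00%) and 0 with DESeq2; at an unadjusted p under 0.05 there were 2 members and 116 genes. Those 2 members, Oasl and Ifit1, are the ones the authors' lithium table named, so their values are a description. Oasl was at 27.3 ± 6.30 CPM with lithium and 52.7 ± 12.2 CPM in control (SD, n = 3 each), a log2 fold change of -0.95 ± 0.27. Ifit1 averaged 1.77 ± 0.254 CPM with lithium and 2.91 ± 0.17 CPM in control, a log2 fold change of -0.71 ± 0.31. The authors' deposited lithium table gives -0.75 for Oasl and -0.48 for Ifit1, at unadjusted p-values of 0.000439 for Oasl and 0.0490 for Ifit1; the highest in that table is 0.0499. Lithium and control libraries did not overlap for these 2 members, both lower, and for 0 members in the higher direction, where 1.57% of all genes tested lay lower without overlap and 1.71% higher.

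For the other 13 members the log2 fold change of lithium over control ran from -0.44 for Ifitm10 to 0.63 for Irf8, and the smallest unadjusted p in edgeR's test was 0.0959. These comparisons share the control libraries with the contrast that chose the names. The 95% intervals were -0.38 to 0.31 for Irf1, -0.47 to 0.36 for Irf7, -0.65 to 0.41 for Isg15 and -0.96 to 0.53 for Ifitm3. The intervals of the scarce Irf4 (-1.04 to 1.62) and Irf8 (-0.36 to 1.62) were wide.

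**Figure D3:**
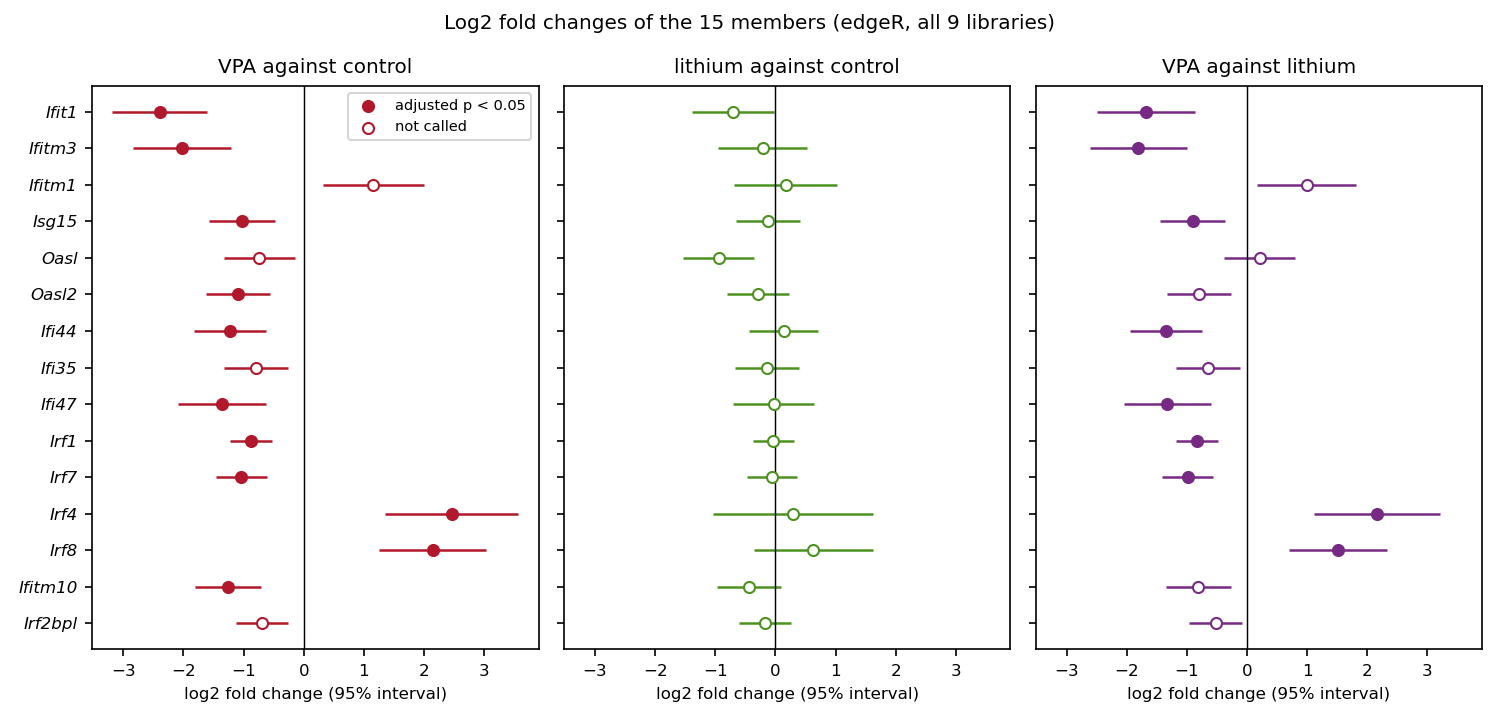
Log2 fold changes of the 15 members with 95% intervals in the 3 comparisons, filled where edgeR's adjusted p was under 0.05. In both comparisons with VPA the points are descriptions whatever their fill. VPA against control and VPA against lithium share the VPA libraries, and both comparisons with control share the controls; the lithium column holds no filled point.

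VPA against lithium sets the drugs side by side. It shares the VPA libraries with the contrast that chose 14 of the 15 names, so a difference was likely beforehand. Its calls are therefore a description. Of the 11 members past the count filter in every VPA and lithium library, 5 fell, 0 rose and 6 did not pass, where 7.93% of genes were called, 2.32% lower and 5.61% higher. Irf1 fell by 0.84 ± 0.16 on the log2 scale (adjusted p = 0.00824 in edgeR's test), Irf7 by 0.98 ± 0.19 (edgeR adjusted p = 0.00995) and Ifi44 by 1.36 ± 0.27 (edgeR adjusted p = 0.011). These 3 calls held in every fit that left out 1 library, at adjusted p-values up to 0.047. Ifitm3 changed by -1.81 ± 0.37 (edgeR adjusted p = 0.012) and Isg15 by -0.91 ± 0.25 (0.046). The members that missed the filter limit in some libraries are described by values alone. VPA over lithium was -1.68 ± 0.37 for Ifit1, -1.33 ± 0.33 for Ifi47, 2.17 ± 0.48 for Irf4 and 1.52 ± 0.37 for Irf8.

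The calls of Ifitm3 and Isg15 did not hold in every fit that left out 1 library. In edgeR's test Ifitm3 was not called without VPA 3 (adjusted p = 0.0546). Isg15 lost its call without any 1 VPA library, lithium 1, lithium 3, control 1 or control 3 (0.0502 to 0.193), and without lithium 1, its highest library, its log2 fold change was -0.56. Of the members that did not pass, Oasl2 had a log2 fold change of -0.80 ± 0.24 and Ifitm10 of -0.81 ± 0.25. Both passed edgeR's test without control 3 (adjusted p = 0.047 for Oasl2 and 0.0466 for Ifitm10), and Oasl2 also without control 2 (0.0366). VPA and lithium libraries did not overlap for 10 members lower and 3 higher with VPA, where 13.5% of all genes tested lay lower without overlap and 15.8% higher. The 4 members that missed the filter limit in some of these libraries are among them, Ifit1 and Ifi47 lower and Irf4 and Irf8 higher. Most names were chosen with these VPA libraries, so the counts are a description. Oasl, at 0.21 ± 0.27 with a 95% interval of -0.38 to 0.80, was the member whose interval included 0, and its sign turned without VPA 3 (-0.10).

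Other genes of the interferon system carried a name for 39 of 144 entries in 4 lists, and 37 were tested. As with the members, the authors' p-values in VPA against control chose the names, so their counts with VPA are a description and not independent evidence. Of the 37, 24 were called lower with VPA and 5 higher, where 2.99% of all genes tested were called lower and 5.71% higher, 8 did not pass, and none was called with lithium. Of 4 signalling genes 2 were called lower with VPA, the receptor-signalling inhibitors Socs3 and Socs1. Socs3 was at 19.0, 18.7 and 24.8 CPM with VPA, 36.3, 27.2 and 34.2 CPM with lithium and 43.3, 43.2 and 47.7 CPM in control, in the same order of groups as Ifit1. The phosphatase gene Ptpn6 (-0.84 ± 0.25) and the MHC class II activator gene Ciita (-0.25 ± 0.31) were not called. Of 3 genes of nucleic acid sensing, the helicase gene Dhx58 (-0.75 ± 0.18) and the adaptor gene Tmem173 (-0.87 ± 0.25) were called lower and the RNA receptor gene Tlr3 (-0.32 ± 0.20) was not.

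Of 21 other interferon-induced genes 17 were called lower with VPA (2.99% of all genes tested), 2 higher (5.71% of all genes) and 2 did not pass. The complement protease genes C1s and C1r changed by -1.26 ± 0.16 and -1.30 ± 0.20, the ADP-ribosyltransferase genes Parp10 and Parp9 by -1.22 ± 0.17 and -0.99 ± 0.19, and the secreted glycoprotein gene Lgals3bp by -0.9996 ± 0.17 (log2, VPA over control). Ube2l6, which encodes the conjugating enzyme of Isg15, changed by -1.49 ± 0.25, beside -0.93 ± 0.20 for the activating enzyme gene Uba7, named after its values were seen. The 2 higher genes, also named after their values were seen, were Lgals9, a galectin, at 0.96 ± 0.22, and Ly6e, a membrane protein, at 1.32 ± 0.33.

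Of 9 genes of antigen presentation tested, 3 were called lower with VPA (2.99% of all genes tested) and 3 higher (5.71% of all genes). The immunoproteasome genes Psmb10 (-2.07 ± 0.30) and Psmb8 (-0.96 ± 0.17) and the peptide editor gene Tapbpl (-1.38 ± 0.20) were lower. The MHC class I genes RT1-CE5 (1.002 ± 0.21) and RT1-CE7 (0.65 ± 0.17) and their light chain gene B2m (0.86 ± 0.20) were higher; RT1 genes are near-identical copies whose reads may be shared. The median log2 fold change of VPA over control was -1.01 over the 21 other induced genes and 0.12 over the 9 antigen presentation genes.

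**Figure D4:**
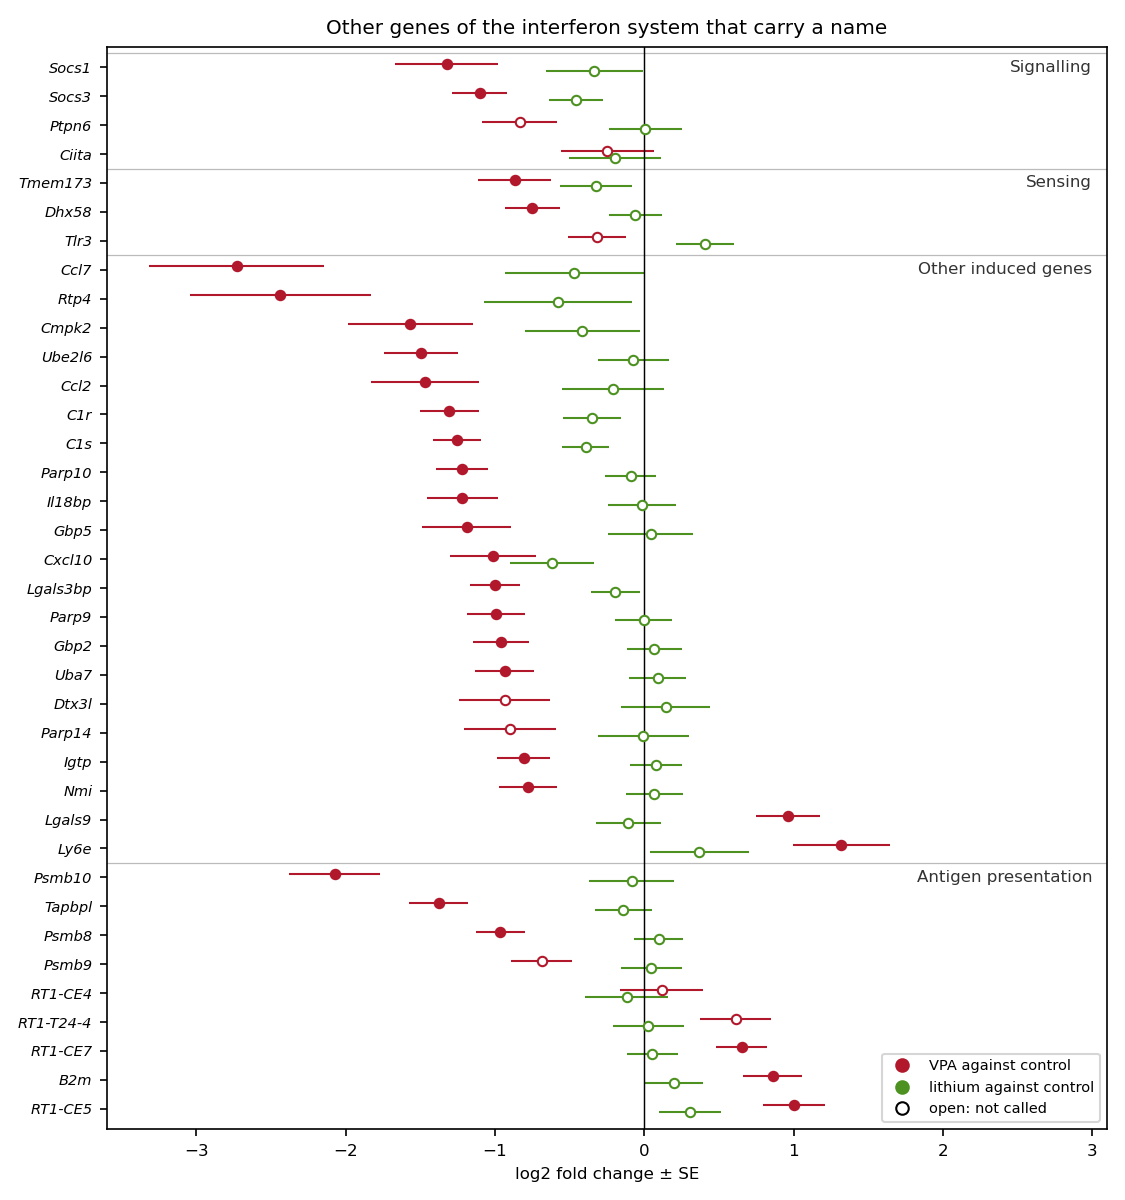
Log2 fold change ± SE over control of 37 other interferon-system genes with a name, for VPA (red) and lithium (green), filled where edgeR's adjusted p was under 0.05. Filled red points lie at both sides of 0 in the antigen presentation list, and all green points are open.

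A search for genes alike covered 1182 genes with a symbol and a mean of at least 1 CPM. The symbols came from the authors' tables, mostly chosen by p in VPA against control, so a high r was likely beforehand. The genes whose log2 CPM followed a member most closely over the 9 libraries were found by Pearson's r. They are given as a description, since the libraries also share their groups. For Ifit1 they were Socs3 (r = 0.987), C1s (0.981) and Traf3ip2 (0.97). For Irf1 they were Parp10 (0.992), Phf19 (0.988) and Mcm7 (0.986). For Ifitm3 they were Medag (0.976), Mfap2 (0.966) and Scrn2 (0.964), and for Oasl Tmem217 (0.932), Scfd2 (0.912) and Serpinf1 (0.902). No gene was shared between these lists of 3.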

How the data were processed

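The authors deposited raw read counts per Ensembl gene for 9 libraries, per the file headers, with 0 lines that name no gene. The submitters' processing notes name STAR 2.5.1, Salmon 0.6.1 and Cufflinks 2.2.1 beside DESeq2 and sleuth; neither genome build nor annotation is stated in what was used here. The authors' DESeq2 tables hold, per the file headers, p-values, log2 fold changes and a signal, the mean normalized count. The authors' Cufflinks table holds FPKM per group and a log2 ratio of control over VPA, turned round here. The authors' Salmon and sleuth table holds effects on a natural log scale, per the file headers. A table titled for kallisto repeats the DESeq2 table in all 1212 lines and was not used.

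Genes passing filterByExpr (minimum count 10) were tested in edgeR 4.0.16 (R 4.3.3) with TMM factors. One robust quasi-likelihood model with a mean per group covered the 9 libraries, and two-sided p-values were adjusted by the Benjamini-Hochberg method across 12719 genes and called at an adjusted p under 0.05. CPM used TMM-scaled library sizes. The groups that carried each member past the filter were counted. SE is the log2 fold change over the square root of F. The fit was tested on simulated data. Alternatives were DESeq2 1.42.0, other scalings and filters, a replicate block, a fit that is not robust, fits of the 2 groups compared, and fits without 1 library. Same-numbered VPA and control libraries deviated together over 10288 genes (correlations 0.605, 0.532 and 0.526). Their title numbers were taken as pairs only in the replicate block. The main fit, which gave the values printed unless stated otherwise, has no pairing. Lithium and control libraries did not deviate together for numbers 1 and 2 (-0.42 and -0.0808) but did for number 3 (0.804). VPA and lithium gave -0.193, 0.0555 and 0.537 for numbers 1, 2 and 3.

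Members and lists were chosen with earlier results of these data known. All members are named, up to 6 genes of each other list by p, and the 3 genes most like each of Ifit1, Ifitm3, Oasl and Irf1. Names came from the authors' tables alone. Members of the Ifit, Ifitm and Oas families can share reads with near copies, and without strand, reads of overlapping genes cannot be told apart.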

Additional observations from a re-analysis of the deposited data

How the results depend on the processing

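Called members in VPA against control numbered 11 to 15 under every alternative that kept all libraries of both groups, with 14 under the replicate block (12 lower, 2 higher) and 15, Ifitm1 included, where the blocked fit used only those groups. Without 1 library they numbered 7 to 11, and called genes 638 to 1026; the block gave 1741 called genes, against 1106. Over all groups, the pairing by replicate number changed the calls of Ifi35, Irf2bpl and Oasl (edgeR adjusted p = 0.036, 0.0267 and 0.0229). In VPA against lithium, called members, counted here over all 15, numbered 9 in the main fit and 4 to 10 without 1 library. This count includes the 4 members that missed the filter limit in some VPA or lithium library, so it is not that of the 5 called among 11. Called genes numbered 544 to 1197 without 1 library, and the block gave 1609 called genes. Isg15 was not called there with upper-quartile factors (edgeR adjusted p = 0.0509). In lithium against control 0 members and 0 genes were called under each alternative run. Signs turned without 1 library for members near 0, whose log2 ranges were -0.30 to 0.00090 for Ifi35, -0.12 to 0.31 for Ifi44, -0.19 to 0.11 for Ifi47, -0.094 to 0.49 for Ifitm1, -0.77 to 0.023 for Ifitm3, -0.14 to 0.057 for Irf1, -0.35 to 0.047 for Irf2bpl, -0.15 to 0.61 for Irf4, -0.16 to 0.086 for Irf7 and -0.47 to 0.11 for Isg15. Oasl ran from -0.10 to 0.36 in VPA against lithium. The cause of these changes was not tested, beyond the fewer samples in such fits. Depth limits Ifit1, Irf4 and Irf8, with 10 to 19 reads in their lowest group.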

Other observations

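Ifi44l, a paralogue beside Ifi44, is listed in the authors' deposited Cufflinks table without an Ensembl identifier and so could not be joined to the counts. It stands there at 1.57 FPKM with VPA and 4.09 FPKM in control, a log2 ratio of VPA over control of -1.38.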
